A study of Mus musculus with 10 samples.

Results

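Distal regions that were open in every library of the course were described in G1E-ER4 cells, a mouse erythroid line with no functional Gata1. The line derives from G1E cells by adding a transgene, always on and present in every group, whose GATA1-ER product needs estrogen receptor ligand to act. All groups grew in SCF and erythropoietin. The groups were untreated cells (0 h) and cells kept for 2, 6, 12 or 24 h in β-estradiol at 1e-07 M, which is that ligand. Each of the 5 time points had 2 ATAC-seq libraries, and nothing in the labels said whether replicates 1 and 2 were separate cultures, so the p-values below measure only the spread between these libraries. In ATAC-seq the Tn5 transposase cuts accessible DNA, and each deposited list gives the summits called in 1 library with a score, which is −log10 of the peak caller's q-value. Summits on chromosomes 1 to 19 and X were extended by 250 bp on each side and merged, which gave 28976 regions. The members were selected on these lists: a region had to hold a summit in all 10 and to lie more than 1 kb from every protein-coding transcript start. In total, 1216 regions met the rule. They were 4.20% of all regions and 6.51% of the distal ones, against 5017 promoter regions in all 10 lists and 7379 distal regions in a single list. Presence in every list is what the rule used and is no finding.

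Distal open regions in erythroid cells include enhancers, insulators and starts of noncoding RNA. Enhancers of this lineage are typically bound by GATA factors, which read the letters AGATAA or TGATAA, often beside TAL1 with its partners LMO2 and LDB1. In Gata1-null progenitors GATA2 holds many of these sites, and it is exchanged for GATA1 when the latter becomes active. CTCF is the main insulator protein, and ETS and SP factors are common at promoters.

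The lists held 10697 to 19855 summits on these chromosomes, with no read totals, so depth is unknown, and a missing summit means only that none was called. Of 12 erythroid marker genes 10 had a promoter summit in at least 1 library and 4 in all 10, among them Nfe2, Epor and Zfpm1. Those with a summit in fewer libraries were Hbb-bs (1), Tal1 (2), Klf1 and Gfi1b (4 each), Lmo2 (7) and Kit (9). Hba-a1 and Slc4a1 had none. Hba-a1 has a near-identical copy, and the part this plays was not tested. Of 15 genes of B cells, T cells, liver, muscle and neurons, 1 (Lck) had a promoter summit, in 3 libraries. The score rank of the distal regions differed between libraries. Their median percentile within a list was 72.5 to 77.8 in the replicate 1 libraries and 56.5 to 76.6 in the replicate 2 libraries. Promoter regions in all 10 lists had 75.9 to 78.1 and 71.7 to 84.8. At 6 h the distal regions ranked higher in replicate 2 (76.6 against 72.5). Rank also went with list length: in replicate 2 it was 56.5 in the list of 10697 summits and 76.6 in that of 19855. The part of replicate number was not tested. The lists of 24 h replicate 2 and 0 h replicate 2 limited the set most: without the first the rule gave 1483 regions and without the second 1358.

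**Figure D1:**
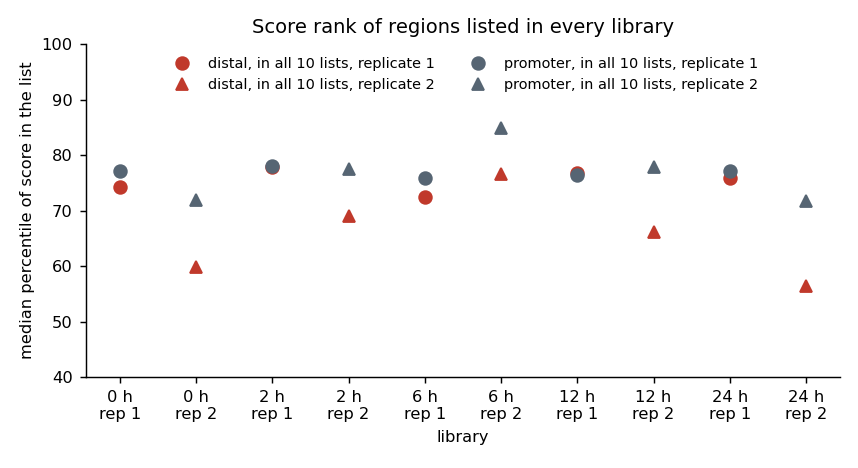
Median percentile of the peak score within its list (y axis, 100 is the highest score) in each of the 10 libraries (x axis), for the 1216 distal regions (red) and the 5017 promoter regions (grey) in all 10 lists; circles are replicate 1 and triangles replicate 2. The distal regions sit below the promoter regions in every library except 12 h replicate 1 (76.8 against 76.3). The gap is larger in replicate 2 at every time point, where the distal regions go down to 56.5 at 24 h.

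Sequences of 6 regions near named genes show what the distal set holds. Each is the median summit with 75 bp on either side, on the forward strand of GRCm38 (mm10) as read from the RefSeq assembly, with the motifs named below, on either strand, in capitals. The Runx1 region (chr16:92801721-92801871, intron), the Kit region (chr5:75460590-75460740, intergenic) and the Alas2 region (chrX:150549778-150549928, intron) hold the TAL1-GATA composite, which is CTG, then 7 or 8 bases, then a GATA motif. Capitals also mark single GATA motifs (Kit, Alas2), RUNX motifs (TGTGGT or TGCGGT, Runx1 and Kit) and an E-box (CAGCTG or CAGATG, Runx1). The region upstream of Hbb-y (chr7:103861019-103861169) lies 7.58 kb upstream of that gene, on the side of the β-globin locus control region, and its capitals mark E-boxes, a pair of NF-E2 motifs (GCTGAGTCA) that contain the AP-1 motif (TGAGTCA or TGACTCA), and a KLF motif (CCNCACCC). The region near Atp2b4 (chr1:133825683-133825833, intergenic) had the highest median percentile of all members with the composite. The region near Rassf7 (chr7:141221824-141221974, intergenic) had the highest of those with a CTCF motif. In these last stretches capitals mark only the composite and the CTCF motif, and SP motifs (GGGCGG), which both also hold, are not marked.
Runx1: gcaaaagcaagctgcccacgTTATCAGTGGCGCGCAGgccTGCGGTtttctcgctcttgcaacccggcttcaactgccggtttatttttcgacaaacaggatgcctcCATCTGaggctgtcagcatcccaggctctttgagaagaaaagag
Kit: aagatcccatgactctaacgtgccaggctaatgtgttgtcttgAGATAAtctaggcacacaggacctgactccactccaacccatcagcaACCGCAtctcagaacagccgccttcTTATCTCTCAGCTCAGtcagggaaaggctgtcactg
Alas2: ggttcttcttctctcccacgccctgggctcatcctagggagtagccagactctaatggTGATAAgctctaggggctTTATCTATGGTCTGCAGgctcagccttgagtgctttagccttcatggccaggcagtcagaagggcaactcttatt
Hbb-y: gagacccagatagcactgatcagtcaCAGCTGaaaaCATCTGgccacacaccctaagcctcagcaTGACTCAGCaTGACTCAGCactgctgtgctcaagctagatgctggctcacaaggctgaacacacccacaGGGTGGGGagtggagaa
Atp2b4: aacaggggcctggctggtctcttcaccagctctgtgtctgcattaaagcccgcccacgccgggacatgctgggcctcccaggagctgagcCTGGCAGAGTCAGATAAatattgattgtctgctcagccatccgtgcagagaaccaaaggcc
Rassf7: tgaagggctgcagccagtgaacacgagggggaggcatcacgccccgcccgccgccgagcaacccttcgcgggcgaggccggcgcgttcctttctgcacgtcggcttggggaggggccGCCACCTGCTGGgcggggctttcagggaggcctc

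The Runx1 region lay 23.6 kb from the nearest start of Runx1, which encodes a transcription factor needed for blood stem cell emergence. Its scores were 24.0/17.4 at 0 h, 17.6/18.6 at 2 h, 13.5/27.4 at 6 h, 16.6/10.3 at 12 h, with 15.2/12.2 at 24 h (replicate 1/replicate 2, as in all such pairs below). The 24 h scores were both below the 0 h scores, but the change was not called with or without a replicate block (log2 change −0.49). The Kit region lay 114 kb from the start of Kit, the receptor for SCF. It scored 15.4/11.6 at 0 h and 12.2/11.8 at 24 h, so the groups overlapped. The Alas2 region, in the gene of the first enzyme of heme synthesis in red cells, scored 7.34/9.40 at 0 h and 6.69/12.6 at 24 h, and the groups again overlapped. The Hbb-y region scored 6.21/5.13 at 0 h and 8.64/5.07 at 24 h, also with overlap. The Atp2b4 region, near a gene of a plasma membrane calcium pump, scored 22.1/25.1 at 0 h and 23.5/36.7 at 24 h, within a range of 21.7 to 49.8 over all libraries.

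The regions were spread over all 20 chromosomes. Of the 1216, 563 (46.3%) had their median summit in an intron, 518 (42.6%) between genes and 135 (11.1%) in an exon. Distal regions in a single list had 53.8%, 39.6% and 6.53%. The median distance to a protein-coding start was 16.9 kb, and 100 regions (8.22%) lay over 100 kb away, against 13.7% of those in a single list. Other annotated starts were close to many: 245 regions (20.1%) lay within 1 kb of a start that the rule did not count, against 7.90% of distal regions in a single list and 12.9% of those in 9 lists. By type of gene, 78 of these starts belonged to other transcripts of protein-coding genes, 63 to lincRNAs, 25 to processed transcripts and 20 to antisense RNAs.

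Base composition split the set. The median GC content of the summit with 100 bp on either side was 52.7%, against 65.2% in promoter regions in all 10 lists and 47.8% in distal regions in 1 list. CpG-rich sequence, meaning GC above 55% with an observed to expected CpG ratio above 0.65, was found in 180 regions (14.8%). The share was 78.2% in those promoter regions, 0.827% in distal regions of 1 list and 8.43% in distal regions of 9 lists. Of the 180, 85 (47.2%) lay within 1 kb of an annotated start the rule did not count, and 11 held a GATA motif. Of the other 1036, 160 (15.4%) lay near such a start and 579 (55.9%) held a GATA motif.

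GATA was the most frequent of the 16 motifs searched. It was present in 590 regions (48.5%), against 28.1% of all 28976 regions and 4.62% of promoter regions in all 10 lists. Among distal regions its share was 31.7% in those of 1 list and 54.4% in those of 9 lists, so the members were not the group with the highest share. At least 2 GATA motifs were found in 231 members of 1216, against 8.36% of all regions. The TAL1-GATA composite was in 191 members (15.7%), against 5.32% of all regions, 3.85% of distal regions in 1 list and 13.8% of those in 9. The nearest GATA motif lay a median of 33.5 bp from the median summit, against 41.5 bp in distal regions of 1 list.

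CTCF ran the other way. Its motif was in 66 members (5.43%), against 11.9% of all regions and 15.6% of distal regions in 1 list. The CTCF share was 7.7% in distal regions of 9 lists and 4.21% in promoter regions in all 10. ETS motifs (CCGGAAG or ACGGAAG) were in 73 members (6.00%), against 8.05% of all regions and 22.1% of promoter regions in all 10. Distal regions had them in 1.74% of those in 1 list and 6.04% of those in 9, so the members did not stand apart from the latter. SP motifs (GGGCGG) were in 268 members (22.0%), against 65.9% of those promoter regions, 5.50% of distal regions in 1 list and 15.3% of those in 9. RUNX motifs were in 308 members (25.3%), 20.3% of all regions, 23.1% of distal regions in 1 to 9 lists and 28.8% of those in 9. E-boxes were in 362 members (29.8%), 25.9% of all regions, 30.9% of distal regions in 1 to 9 lists and 34.8% of those in 9. NF-E2 motifs were rare, with 31 members (2.55%) and 1.33% of all regions, and each contains an AP-1 motif. None of the 16 motifs was found in 109 members. GATA motifs were found in 61.6% of members with an E-box, which can be part of the composite, and in 22.0% of members with an SP motif. These shares are descriptions over regions, which are not replicates, and a match is not a bound site.

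**Figure D2:**
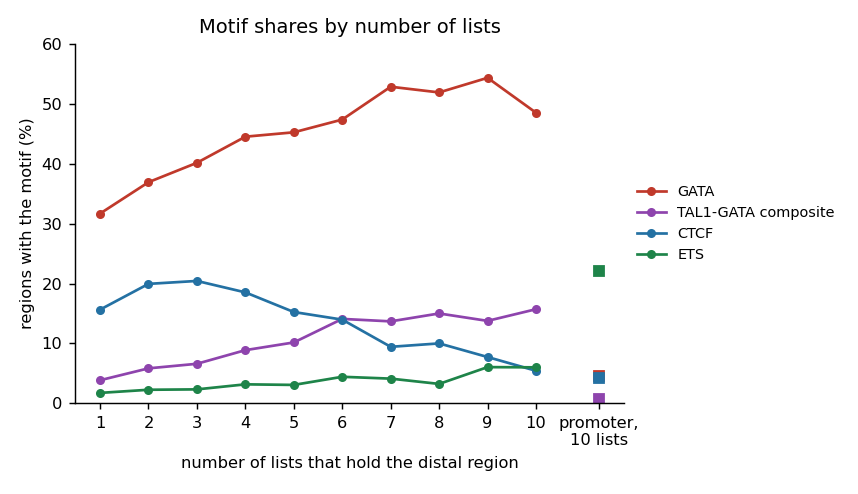
Share of regions with each of 4 motifs (y axis, percent) among distal regions by the number of lists that hold them (x axis, 10 being the members), with squares for promoter regions in all 10 lists. GATA goes from 31.7% at 1 list to 54.4% at 9 and 48.5% at 10, and CTCF from 15.6% at 1 list through a peak at 3 lists to 5.43% at 10.

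The highest scores of the set lay in regions of another kind. Of the 20 members with the highest median percentile, 1 held a GATA motif, and in 17 (85%) at least 10% of the 31-base stretches around the summit occurred more than once in the genome. This was so in 76 of the other 1196 members (6.36%) and in 2.01% of the 5017 promoter regions in all 10 lists. Summits there also coincided closely between libraries: the median SD of summit position was 10.2 bp in the 20 and 68.5 bp in the other members. An SD under 10 bp was found in 22 members, of which 21 had such repeated stretches, and in 5 of the 5017 promoter regions. The part that multiply placed sequence plays in these scores was not tested.

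The 4 regions below show this sequence. The first (chr9:35305324-35305474, soft-masked as repeat over 100% of that window) and the second (chr3:5860622-5860772) had the highest scores and no motif. The third (chr6:103649131-103649281) lay in an intron of Chl1, a neural cell adhesion gene, and its capitals mark a GATA motif, while a RUNX motif beside it is not marked. The fourth (chr6:3201425-3201575) had the highest median percentile of members with an ETS motif, which lay beyond the bases printed.
chromosome 9 repeat: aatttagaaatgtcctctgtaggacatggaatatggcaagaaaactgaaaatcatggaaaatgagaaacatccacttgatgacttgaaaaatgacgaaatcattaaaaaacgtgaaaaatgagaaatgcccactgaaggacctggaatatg
chromosome 3 repeat: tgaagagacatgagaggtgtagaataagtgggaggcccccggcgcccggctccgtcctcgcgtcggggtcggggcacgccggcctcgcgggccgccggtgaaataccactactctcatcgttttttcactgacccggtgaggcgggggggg
Chl1: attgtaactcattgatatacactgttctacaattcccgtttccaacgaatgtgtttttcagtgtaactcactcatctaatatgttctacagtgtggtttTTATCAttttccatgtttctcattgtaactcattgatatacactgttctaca
Samd9l: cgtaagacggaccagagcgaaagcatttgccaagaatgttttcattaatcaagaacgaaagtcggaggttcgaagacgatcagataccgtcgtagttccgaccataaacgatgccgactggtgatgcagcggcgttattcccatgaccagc

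The chromosome 9 region held the highest score in 9 of 10 lists, in 12 h replicate 1 together with the chromosome 3 region, and ran from 84.4 in 12 h replicate 1 to 160 in 12 h replicate 2. The chromosome 3 region scored 84.4 to 142. In the Chl1 region, scores ran from 72.2 to 116, its summits had an SD of 0.516 bp, and 61.4% of its stretches were repeated. In the region near Samd9l, 19.9% of stretches matched the chromosome 17 locus of Gm26917 and Gm42418, which holds ribosomal RNA sequence, and scores ran from 44.0 to 79.2. A region near Col19a1 (chr1:24612499-24613005) shared 86.5% of its stretches with mitochondrial DNA and scored 70.2 to 88.3. It was the only member that shared 10% or more. The next ranked members with ETS, CTCF and composite motifs lay near Apbb1ip (18.7% of stretches repeated), 4930467E23Rik (71.3%) and Susd6 (0%). At the 8 members with the highest median percentile, the log2 change at 24 h lay between −0.16 and 0.05, and none was called. These changes are of scores quantile normalised as described below. Regions at the top of every list then get similar values in each library, so the small changes do not show stability.

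**Figure D3:**
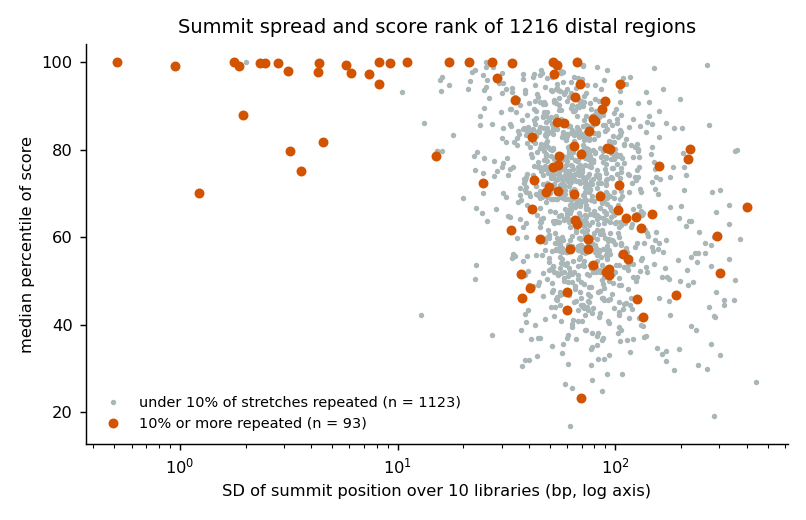
SD of the summit position over the 10 libraries (x axis, bp, log scale) against the median percentile of the score (y axis) for the 1216 distal regions; orange marks the 93 with at least 10% of 31-base stretches repeated in the genome. Of the 22 regions with an SD under 10 bp, 21 are orange.

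Away from these, the best ranked members near erythroid genes were counted by gene list. A region was assigned to a gene when it lay in its body or when the gene's start was the nearest, which does not show that the region acts on it. As a base, 1190 genes had at least 1 member, where 21646 had a protein-coding start, and 48.5% of all members held a GATA motif. Whether the lists differ from these was not tested. The list of GATA factors, TAL1 complex members and their partners had 10 members at 7 of 21 genes, 7 with a GATA motif, and 4 of them at Runx1. The other regions lay near Gata1, Gata2, Lmo2, Cbfa2t3, Ssbp3 and Rcor1. Other haematopoietic transcription factors had 10 members at 9 of 34 genes. The best ranked, 33.0 kb from the start of Gfi1, a transcriptional repressor, scored 20.4/33.1 at 0 h and 12.8/24.6 at 24 h, with overlap. The next lay in introns of Klf13 (median percentile 80.6) and Nfix (79.0). Red cell membrane and surface genes had 11 members at 9 of 23 genes, 8 with a GATA motif. They included a pair each at Sptb, which encodes β-spectrin, and Ank1, which encodes the ankyrin that ties spectrin to the membrane. Globin, heme and iron genes had 4 members at 4 of 29 genes: Alas2, Hbb-y, Slc25a38, a mitochondrial carrier, and Steap3, a ferrireductase.

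Cytokine receptor and signalling genes had 5 members at 4 of 29 genes, with a pair at Inpp5d, an inositol phosphatase gene. Mast cell and megakaryocyte genes had 6 members at 5 of 21 genes, with a pair near Gp9, which encodes a platelet surface glycoprotein, and others at Itga2b, Pf4, Itgb7 and Mrvi1. For all 6 the fitted log2 change at 24 h was below 0, with a median of −0.55 against −0.00 over all members, and none passed the test in either fit. Medians were also below 0 for other haematopoietic transcription factors (−0.35), survival and cell cycle (−0.27) and cytokine (−0.09) genes. They were above 0 for the GATA and TAL1 (0.05), globin, heme and iron (0.16) and red cell membrane (0.15) lists. Differences between the lists were not tested. Survival and cell cycle genes had 7 members at 6 of 20 genes, with a pair in Ccnd3, a G1 cyclin gene, and others near Ccne1 and in Trp53. No member of any of the 7 lists was called at 24 h by limma, without the replicate block (0% of 6233 regions called) or with it (0.176%), and 6 of their 53 members had an unadjusted p under 0.05 without it (4.06% of all regions and 9.29% of all members did). Over all genes, 134 had at least 2 members and 21 at least 3. At Prkar2b, which encodes a regulatory subunit of protein kinase A, 5 members lay within 82.4 kb, 4 with a GATA motif, while the 4 at Chd2, a chromatin remodeller gene, lay within 60.6 kb with none. A further 10 fell in Gm20388, an annotated span in which several genes lie.

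Change over the course was tested on the scores, of which the rule used only the minimum needed for listing. A region whose score fell below that limit in any library was left out, which bounds the changes that could be seen. The log2 of the highest score of each library in a region was quantile normalised over the 6233 regions in all 10 lists and fitted with limma. Without a term for replicate number no region was called at adjusted p under 0.05 at 2, 6, 12 or 24 h against 0 h (0% of 6233), and none by the F test over the 5 time points. At an unadjusted p under 0.05 there were 52 members at 2 h (2.57% of all 6233 regions passed), 57 at 6 h (2.31%), 56 at 12 h (2.63%), with 113 at 24 h (4.06%). As a share of the 1216 members these were 4.28%, 4.69%, 4.61% and 9.29%, and of the promoter regions 2.15%, 1.73%, 2.15% and 2.79%. The median log2 change of the members was 0.03, −0.06, 0.02 and −0.00 at the 4 times, and 605 of 1216 were above 0 at 24 h.

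Same-numbered libraries deviated together, and with the replicate number as a block 11 regions were called at 24 h (0.176% of 6233), of which 10 fell (0.16%) and 1 rose (0.016%). All 11 were members. No region was called at 2, 6 or 12 h with the block (0%). The F test called 4 regions (0.0642%), which were also members and among the 11. At an unadjusted p under 0.05 the block fit gave 93 members at 2 h (5.71% of all regions), 100 at 6 h (5.66%), 105 at 12 h (5.97%), with 173 at 24 h (7.62%) and 145 by the F test (6.06%), where the fit without the block had 66 (1.67%). The median summits of the 11 lay in introns (8) or between genes (3), and the regions were 2.45 to 91.2 kb from a start. None had repeated stretches, where 7.65% of the 1216 members had at least 10% of stretches repeated. A GATA motif was in 6 of the 11, against 48.5% of all members. These 6 were among the 10 that fell, and with only 1 that rose this shows no link with direction. In all 11 the 0 h and 24 h scores did not overlap, but they were chosen by this contrast, so this is no finding. On normalised scores, 325 of all 1216 members were higher at 24 h in both replicate numbers and 353 were lower in both. Many calls were lost when a 0 h or 24 h library was left out, which leaves 1 library on that side of the contrast. Lost calls therefore cannot show whether the changes rest on single libraries. Without 0 h replicate 1 all 11 changes kept their direction but were smaller. The log2 change was then −1.735 in Ahi1 (−1.743 with all libraries), −1.22 near Prpsap1 (−1.91) and 1.13 in Ctse (1.95).

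**Figure D4:**
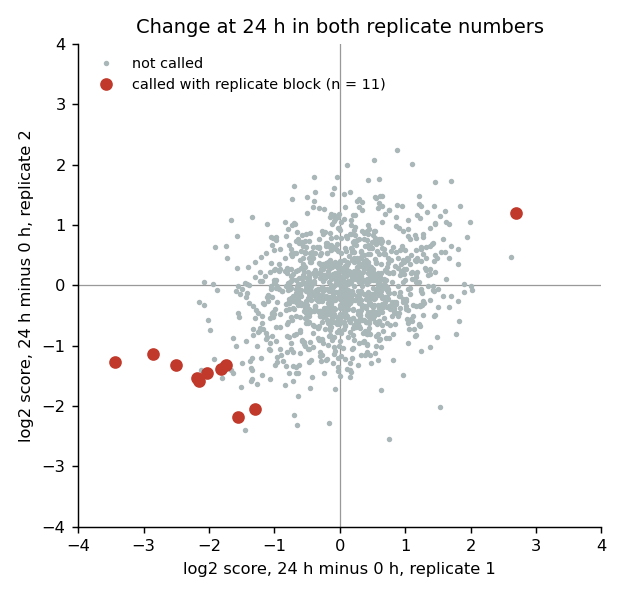
Change of the normalised log2 score from 0 h to 24 h in replicate 1 (x axis) and replicate 2 (y axis) for each of the 1216 distal regions; red marks the 11 called with the replicate block. Of the red points, 10 lie below 0 on both axes and 1 above 0 on both, and they were selected on this change.

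Sequences of the 3 regions with the lowest blocked p that fell (near Ahi1, Mbnl1 and Tln2), the 1 that rose (Ctse) and the next region with a higher score at 24 h (Cmip, not called) follow, with all motif matches in capitals. They are chr10:21054902-21055052, chr3:60603213-60603363, chr9:67463585-67463735, chr1:131658114-131658264 and chr8:117297962-117298112. The median summit of each lay in an intron of the gene named, and the bases around it can reach into an exon. The Ahi1 stretch holds GATA motifs on both strands, a RUNX motif, a PU.1 motif (GAGGAAG) and an E-box. The Mbnl1 stretch holds E-boxes, that of Tln2 a RUNX motif, that of Ctse an NRF1 motif (GCATGCGC) and that of Cmip the TAL1-GATA composite.
Ahi1: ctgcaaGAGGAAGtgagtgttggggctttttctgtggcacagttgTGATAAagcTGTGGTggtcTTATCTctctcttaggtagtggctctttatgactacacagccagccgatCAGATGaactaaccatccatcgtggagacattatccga
Mbnl1: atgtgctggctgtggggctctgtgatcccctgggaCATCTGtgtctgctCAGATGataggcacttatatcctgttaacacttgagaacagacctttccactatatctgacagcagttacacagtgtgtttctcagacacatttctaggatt
Tln2: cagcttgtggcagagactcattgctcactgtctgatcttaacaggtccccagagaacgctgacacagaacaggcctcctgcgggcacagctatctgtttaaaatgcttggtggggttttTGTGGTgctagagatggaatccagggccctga
Ctse: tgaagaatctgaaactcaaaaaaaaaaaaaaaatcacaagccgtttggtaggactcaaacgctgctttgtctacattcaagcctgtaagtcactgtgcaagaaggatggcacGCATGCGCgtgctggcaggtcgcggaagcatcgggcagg
Cmip: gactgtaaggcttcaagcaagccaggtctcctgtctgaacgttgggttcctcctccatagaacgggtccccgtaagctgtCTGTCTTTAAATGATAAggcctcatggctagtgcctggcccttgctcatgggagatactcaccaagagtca

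The region in Ahi1, a gene of primary cilia beside Myb, scored 19.4/28.3 at 0 h, 19.997/33.1 at 2 h, 10.98/30.6 at 6 h, 13.9/25.7 at 12 h, with 4.53/9.78 at 24 h. Both 24 h libraries were below all others. The log2 change was −1.74 ± 0.34 (SE, n = 2 per time point) with an adjusted p of 0.00402 with the block and 0.55 without it (limma). The region in Mbnl1, a splicing regulator, scored 20.9/34.7 at 0 h, 15.4/33.9 at 2 h, 4.27/27.7 at 6 h, 6.38/25.3 at 12 h, with 4.40/11.4 at 24 h. Relative to 0 h, its normalised score was 0.215 at 6 h and 0.322 at 12 h in replicate 1, and 0.468 and 0.568 in replicate 2, but neither time was called. Its log2 change at 24 h was −1.87 ± 0.37 (adjusted p = 0.00402 with the block, 0.714 without, limma).

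The region in Tln2, which encodes a talin that links integrins to actin, scored 23.0/8.68 at 0 h, 10.7/8.42 at 2 h, 8.29/15.1 at 6 h, 7.98/3.40 at 12 h, with 2.21/3.50 at 24 h. It had the largest log2 change of the 11, −2.35 ± 0.47 (adjusted p = 0.00402 with the block, 0.55 without, limma), and its 0 h scores differed more between replicates than those of Ahi1. The region in Ctse, the gene of cathepsin E, was the one that rose. It scored 3.52/5.62 at 0 h, 17.2/11.2 at 2 h, 12.8/23.6 at 6 h, 12.1/9.82 at 12 h, with 17.2/15.0 at 24 h. Every later library was above both 0 h libraries, and the log2 change at 24 h was 1.95 ± 0.41 (adjusted p = 0.00632 with the block, 0.55 without, limma). These 4 regions were those called by the F test, with adjusted p of 0.00304 for Ahi1 and Mbnl1 and 0.048 for Tln2 and Ctse.

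The other 7 that fell had log2 changes at 24 h from −1.996 to −1.54. The region 2.45 kb from Rictor, a subunit gene of the mTORC2 kinase complex, scored 19.7/19.1 at 0 h and 2.67/8.09 at 24 h. The region near Prpsap1 scored 25.2/12.8 at 0 h and 4.30/4.77 at 24 h. In Nova1, a splicing factor gene of neurons, the scores were 11.7/8.03 at 0 h and 2.44/2.68 at 24 h. In Adora3, an adenosine receptor gene, they were 12.8/15.1 at 0 h and 4.04/3.05 at 24 h. The region in Nsmce1, a gene of the SMC5/6 complex, had 23.5/24.2 at 0 h and 8.96/5.16 at 24 h. The remaining pair, in Ap1s3 and near Dirc2, held the TAL1-GATA composite. Their scores went from 22.7 and 21.4 to 6.09 and 7.46 (Ap1s3) and from 24.9 and 23.0 to 7.01 and 8.596 (Dirc2).

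**Figure D5:**
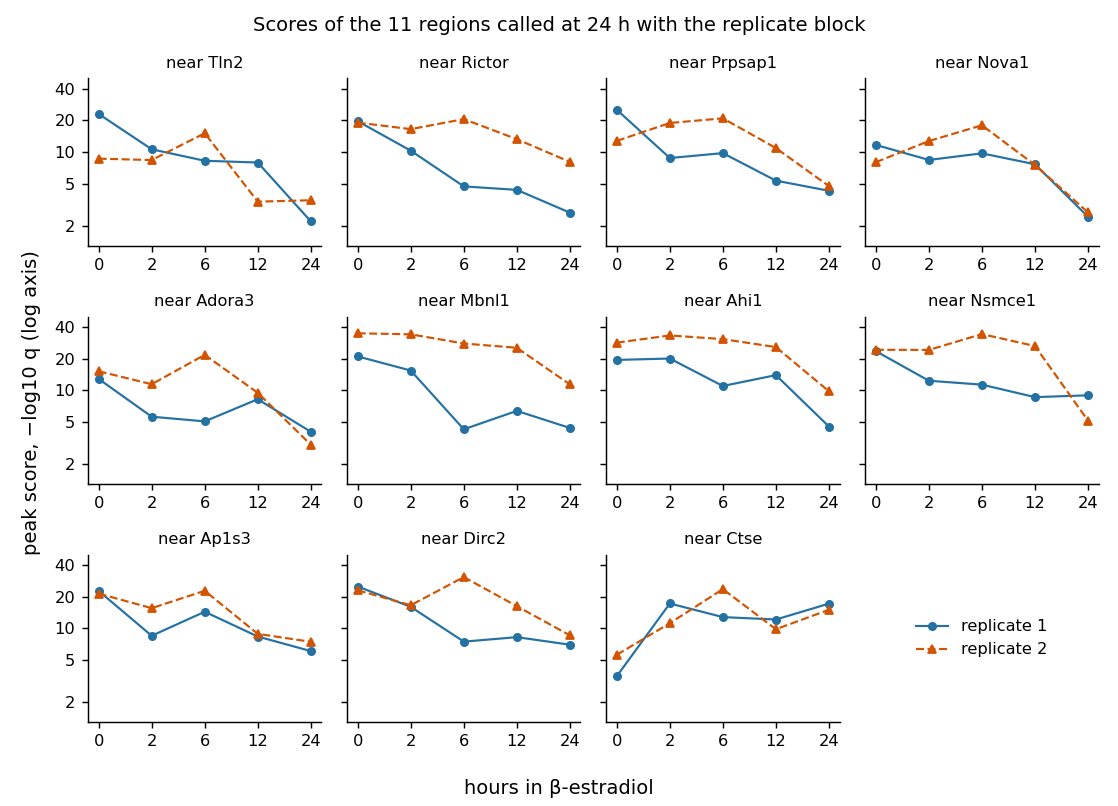
Peak score (y axis, −log10 q, log scale) by hours in β-estradiol (x axis, time points evenly spaced) of the 11 regions called at 24 h with the replicate block, 1 panel per region, with replicate 1 in blue and replicate 2 in orange. In each panel both 24 h points lie on one side of both 0 h points, above them for Ctse and below them for the other 10. The regions were selected on this difference.

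By the lowest unadjusted p without the block, the leading members at 2, 6 and 12 h are given as values, since none was called. Higher at 2 h were regions in Col28a1, with 3.47/8.37 at 0 h and 17.1/21.2 at 2 h, near Hsph1, a heat shock gene, with 4.42 and 3.10 against 9.47 and 13.9, and in Ctse. The region near Hsph1 and that near Tent5c also led at 12 h, with 11.2 and 20.9 (Hsph1) and 11.1 and 16.3 (Tent5c, against 4.84/2.85 at 0 h). A region in Fer1l6 was the third, at 12.2 and 17.1 against 3.84 and 5.08. At 6 h the higher ones included regions in Ctse and Por. Lower at 2 h was a region in Itga2b, which encodes the platelet integrin αIIb. It scored 16.7/10.7 at 0 h, 5.10/3.598 at 2 h, 4.26/19.2 at 6 h, 4.71/4.35 at 12 h, with 8.88/3.67 at 24 h, so that only 6 h replicate 2 reached the 0 h level. Regions near Nek2 and in Ryk were the others lower at 2 h. At 6 h the lower ones were in Mbnl1, near Prdm10 and near Gata1, and at 12 h in Ap1s3, Itga2b and near Prpsap1. The region 14.7 kb from the start of Gata1, the gene this line lacks in functional form, scored 15.0/6.87 at 0 h and 3.53/5.71 at 6 h. At 24 h the members with the lowest p were Ctse, Cmip and a region near Nup160 (higher) and Ahi1, Tln2 and Prpsap1 (lower). Cmip scored 6.55/2.91 at 0 h and 16.8/10.6 at 24 h.

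Members with and without a GATA motif differed a little at 24 h. The mean normalised log2 score of the 590 with the motif was 3.30/3.16 at 0 h and 3.27/3.02 at 24 h, lower by 0.03 and 0.14 in replicates 1 and 2. For the 626 without it the means were 3.41/3.25 at 0 h and 3.48/3.27 at 24 h, higher by 0.07 and 0.02. The 191 with the composite were at −0.12 and −0.14, the 66 with CTCF at 0.10 and 0.04, and the 109 with no motif at 0.15 and 0.12. At 12 h the replicates went opposite ways for the GATA members, by 0.11 and −0.10. With 2 libraries per time point these class means were not tested. Replicate 2 minus replicate 1 was −0.14 to −0.30 over all members at the 5 time points, and 0.03 to 0.07 over the promoter regions, and the mean change of the members from 0 h within a replicate number ran from −0.08 to 0.10.

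At the edges of the rule, the members closest to a start lay 1.002 kb from Mtfp1 and 1.004 kb from Tmem88b, and the nearest promoter regions that were left out lay 0.952 kb from Gm11168 and 0.958 kb from Zbtb32. The lowest member score was 1.39, in 24 h replicate 2, near Jmy, and that of 0 h replicate 1 was 1.41, near 4933428G20Rik, where the lowest score in any list was 1.302. The median percentile of members ran from 16.9 to 99.99 with a median of 70.5, against 75.8 for the promoter regions, and 141 members (11.6%) reached 90. Outside the rule, 712 distal regions were in 9 lists, of which 267 were missing from 24 h replicate 2, 141 from 0 h replicate 2 and 4 from 6 h replicate 2.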

How the data were processed

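ATAC-seq peak lists of 10 libraries were used. The authors trimmed adaptors, aligned reads to mm10, kept reads with 1 position and called peaks in each library with MACS2 without a fragment model. The submitters' processing notes name Bowtie 1.0.0 and Picard, whereas the methods name Bowtie2, so the aligner is not settled. No Tn5 shift is stated, which leaves summit positions uncertain by several bases. The deposited scores are −log10 of the q-value in each library, not scaled between libraries, and rise with depth, which is unknown and limits what a score difference can show. The lowest was 1.302 (q = 0.0499).

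Groups came from sample titles. Summits were merged as in the text, and the consensus summit was the median over libraries. Places in introns, in exons or between genes were assigned by that summit base alone. GENCODE M21 (comprehensive) gave 54050 protein-coding starts. Motifs were exact letters on both strands in the summit with 100 bp on either side. Copies of 31-base stretches were counted in the RefSeq GRCm38 chromosomes. Scores were fitted with limma 3.58.1 in R 4.3.3 (trend), with Benjamini-Hochberg adjustment over 6233 regions, and tested on simulated data. Replicate 2 minus replicate 1 correlated between time points across regions (r = 0.178 to 0.361 for the 10 pairs of time points), so the numbers were taken as pairs, although the labels do not say what they share. Alternatives covered windows, list size, distances, normalisation, filters and left-out libraries.

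Named regions were the 3 with the lowest p each way per time point, the 8 with the highest median percentile, the 2 highest with each of 4 motifs or none, up to 3 per gene list and those at the edges of the rule. The 11 blocked calls and the Runx1, Kit, Alas2 and Hbb-y sequences were chosen after values were seen, as was the comparison of 20 members with the rest. Some regions that the rule names are not reported here. Members, gene lists and motifs were chosen with earlier results of these data known.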

Additional observations from a re-analysis of the deposited data

Results flagged for a closer look

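Outside the chromosomes used, the lists held 73 peaks in all, of which 49 were mitochondrial (4 or 5 per list) and 24 on chromosome Y. The highest mitochondrial score of a list was 34.6 to 39.8. The untreated 0 h libraries held 5 and 4 of the mitochondrial peaks. These peaks entered no comparison.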

How the results depend on the processing

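Lists of equal size gave 789 members instead of 1216, a basic transcript set (chosen after seeing the data) 1263, and leaving out 1 library 1219 to 1483. The GATA share was 44.8% around the region midpoint, 32.5% with 50 bp on either side of the summit and 53.1% over 1 kb from any annotated start. With 50 bp the composite share was 8.63%, CTCF 2.63% and ETS 2.96%, as fewer bases were searched, and a looser CTCF core gave 9.13%.

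Without the replicate block no alternative called a member at any time point. With the block, 11 members were called at 24 h, 4 by the F test and 0 at 2, 6 and 12 h. The following were chosen after seeing the data. At 24 h the block fit called 7 with sums of scores and 6 over regions in 2 or more libraries, and no replicate block gave 0. By the F test it called 2 with cyclic loess, 2 with sums, 2 over regions in 2 or more libraries and 0 with no replicate block. At 6 h it called 1 member with median centring, 1 in the upper part by mean score, and 1 each without 0 h replicate 2, 12 h replicate 1 or 24 h replicate 1. At 2 h it called 1 without 0 h replicate 2 and 1 without 2 h replicate 2. Leaving out 1 library gave 0 to 12 at 24 h and 0 to 6 by the F test, with 0 for both without 0 h replicate 1. By the F test, 2 remained in number without 2 h replicate 1, 6 h replicate 1 or 6 h replicate 2, and 1 without 24 h replicate 1. Where 1 library is left at a time point, it is assumed to vary like the others. Over 183 settings of the 11 regions the direction was the same in 183 and the call was lost in 61. Many of these settings, such as leaving out a 2, 6 or 12 h library or the block, cannot alter the change from 0 h to 24 h. The regions were also selected on that change, so the agreement in direction is no support for it. The cause of the lost calls was not tested. Read depth is unknown, so a low score cannot be told apart from a shallow library.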
